A study of Homo sapiens with 6 samples.

Results

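The genes that carry glucose into the cell, split it to pyruvate and move lactate out of it were followed in 12Z cells after knockdown of the long non-coding RNA LINC01133. The set held 36 genes of the 60660 listed in the count files: 4 glucose transporters, 9 enzymes of the upper and 6 of the lower part of glycolysis, 4 genes that set the level of the activator of phosphofructokinase, 4 genes of lactate, 4 of the entry of pyruvate into mitochondria, 4 kinases of pyruvate dehydrogenase, and HIF1A. Members were chosen by their place in the pathway, with earlier results of these data known, and matched by Ensembl identifier. After a filter on low counts, 35 of them were tested together with all other genes (15155 in all), and PDK4, with 1 count in each of 2 libraries and 0 in the other 4, was not. The established line 12Z was derived from epithelial cells of endometriosis, a disease in which tissue like the lining of the uterus grows outside it. Cells were transfected either with a non-targeting control siRNA (3 libraries) or with siRNA LINC01133a at 10 nM (3 libraries), and all were lysed after 72 h. Both groups share the cell line, the transfection and the time, and a single siRNA against the target was sequenced, so what follows from the loss of LINC01133 and what follows from this oligo cannot be told apart. RNA was sequenced after poly-A enrichment, on a single lane.

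Glycolysis turns glucose into pyruvate in the cytosol. Hexokinases trap glucose as a phosphate, phosphofructokinase commits it to the pathway, and the later enzymes, from GAPDH to pyruvate kinase, yield ATP and NADH. Lactate dehydrogenase turns pyruvate into lactate and restores the NAD that GAPDH needs, and monocarboxylate transporters carry the lactate out. Pyruvate that goes into mitochondria instead passes through a carrier and the pyruvate dehydrogenase complex, which is switched off by its kinases. HIF1A encodes the oxygen-regulated subunit of a transcription factor known to drive many genes of this pathway. GAPDH is also widely used as a reference in qRT-PCR, and in the study qRT-PCR was normalised to it.

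LINC01133 (ENSG00000224259.7) itself was lower in knockdown cells. It had 813, 818 and 837 normalised read counts in control and 130, 131 and 138 in knockdown libraries, a log2 fold change of -2.63. Normalised counts are read counts divided by the effective size of the library (total count times the TMM factor of edgeR) and multiplied by the mean effective size. The guide strand of the siRNA is shown here because its seed, the bases at positions 2 to 8 in capitals, is searched for in the members below.
guide strand of siRNA LINC01133a: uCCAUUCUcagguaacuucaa
Its 19-base target was found in transcripts of LINC01133 and of no other gene of GENCODE v44, on the plus strand of chromosome 1 in GRCh38 (chr1:159976669-159976687), within an exon shared by 3 of the 5 annotated transcripts.

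Library depth ranged from 29703111 to 34761062 counts on genes in control and from 27742562 to 37551194 in knockdown libraries, and replicates of a group were close (edgeR's common biological coefficient of variation was 0.0439). The epithelial label was held against markers. KRT8, KRT18, KRT19 and KRT7 were at mean normalised counts of 3572 or more in control cells, but EPCAM was at 13.6 and the mesenchymal COL3A1 at 125479. The summed level of the 6 epithelial markers was 199951 to 210812 in control and 127729 to 133727 in knockdown libraries, and 5 of the 6 fell. The summed level of 6 stromal markers was 276015 to 297063 and 265400 to 269110, and 4 of them fell. The summed level of 3 immune markers was 1615 to 1823 in control and 846 to 905 in knockdown libraries. It was carried by CD14, which fell from 1707 to 863 normalised counts (log2 fold change -0.98), while CD3E was at 0 in all libraries. The summed level of 3 endothelial markers was 79.8 to 91.8 and 178 to 219, with CDH5 rising from 63.4 to 174 normalised counts (log2 fold change 1.45) and PECAM1 at no more than 3 counts. The part of these shifts in the results below was not tested.

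Most of these members were lower in knockdown cells. Since they were chosen with earlier results of these data known, their counts are not a test of the pathway as a whole. Of the 35 members tested, 23 fell, 3 rose and 9 did not pass the test (edgeR's quasi-likelihood test, Benjamini-Hochberg adjusted p under 0.05 over all genes tested). Of all genes tested, 48.3% passed it, with 25% lower and 23.3% higher. The median log2 fold change of the members was -0.35, against 0.003 over all genes. All 3 knockdown libraries lay below all 3 control libraries in 24 members and above them in 3, where these shares were 29% and 28.3% of all genes (57.3% in either direction). With the study's added cutoff of a fold change over 1.5, 5 members were differentially expressed (DE), all of them lower: SLC2A3, PFKFB4, PFKFB3, TIGAR and HK2. By this rule 11.7% of all genes were DE, with 6.43% lower and 5.3% higher, and no member rose past the cutoff. Many members are among the highly expressed genes, and among genes with a mean normalised count of at least 1000 the share that fell was 34.8% and the median log2 fold change was -0.03. Of the 24 members at that level, 18 fell and 2 rose, with a median of -0.38. In bulk RNA, fewer transcripts per cell and fewer cells that express a gene cannot be told apart.

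**Figure D1:**
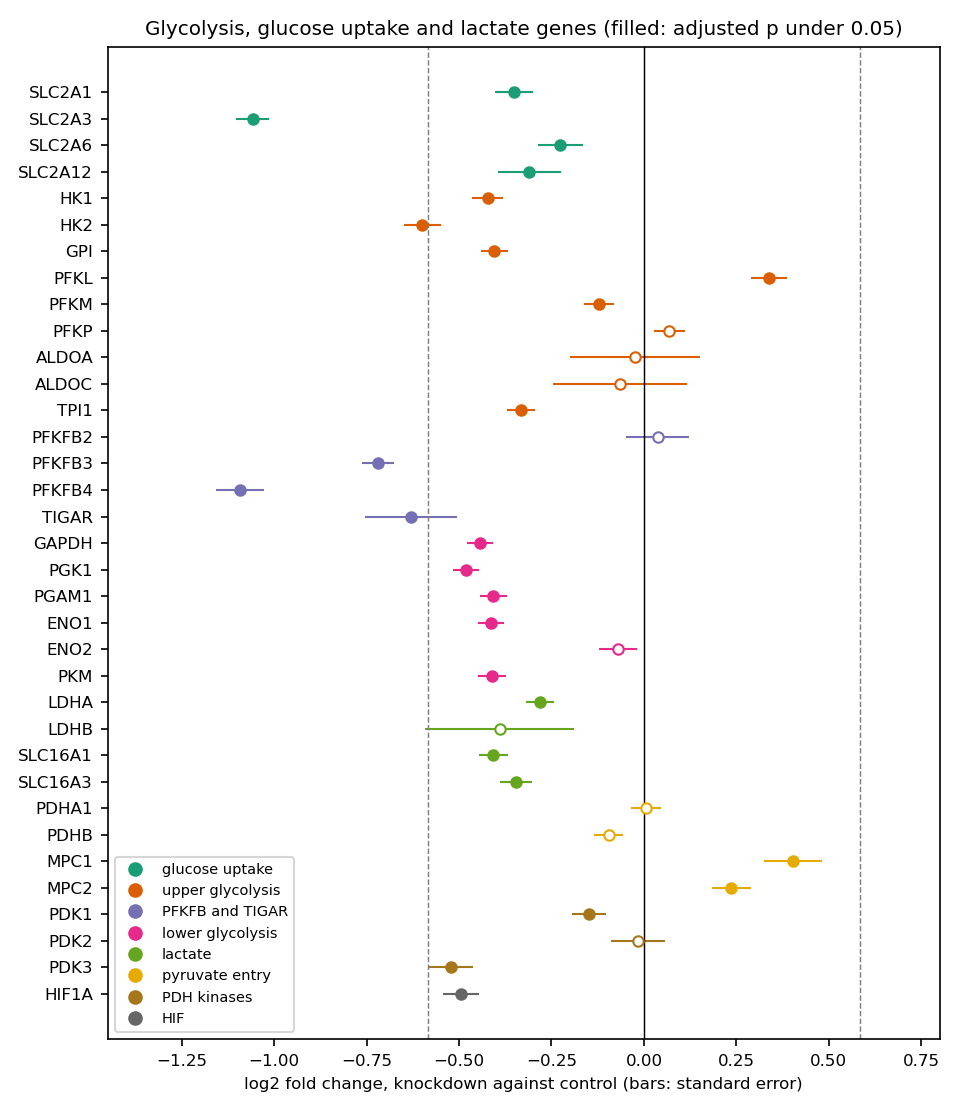
Log2 fold change of knockdown against control cells for the 35 members tested, ordered by their role; horizontal bars are the standard error, filled points passed an adjusted p under 0.05, and dashed lines mark a fold change of 1.5. Points for 23 members lie left of 0 and are filled, and the 3 filled points to the right are PFKL, MPC1 and MPC2.

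GAPDH, the enzyme that oxidises glyceraldehyde phosphate, fell to 73.6% of control. It (ENSG00000111640.15, chr12:6534512-6538374, plus strand, GRCh38) had normalised counts of 121729, 120514 and 117371 in control and 88671, 90172 and 85657 in knockdown libraries. The groups were far apart relative to their spread (119871 ± 2249 against 88167 ± 2299, SD, n = 3 each), and the log2 fold change was -0.44 (SE 0.034, adjusted p = 2.8e-07). The other enzymes of the lower part of the pathway fell by like amounts, apart from ENO2. PGK1, which makes the first ATP, had 31254, 31750 and 32822 in control and 22673, 23590 and 22395 in knockdown libraries (log2 fold change -0.48, adjusted p = 2.4e-07). PGAM1, a phosphoglycerate mutase, fell by 0.41 on the log2 scale (17300 ± 364 against 13048 ± 430, SD, n = 3 each). ENO1, the main enolase, had 99108, 100333 and 100995 in control and 76444, 76871 and 72353 in knockdown libraries (log2 fold change -0.41, adjusted p = 6.5e-07). PKM, the pyruvate kinase of most cells other than liver and red blood cells, had 68639, 69910 and 65607 in control and 51747, 52562 and 49194 in knockdown libraries (-0.41, adjusted p = 1.6e-06). In these 5 genes the groups did not overlap, and the log2 fold changes ranged from -0.48 to -0.41. ENO2, the enolase best known from neurons, did not pass the test. Its control libraries (2525, 2198 and 2428) overlapped those of knockdown (2215, 2358 and 2249), with a log2 fold change of -0.07 and an adjusted p of 0.28. Without control replicate 2 ENO2 was called lower (log2 fold change -0.13, adjusted p = 0.020).

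**Figure D2:**
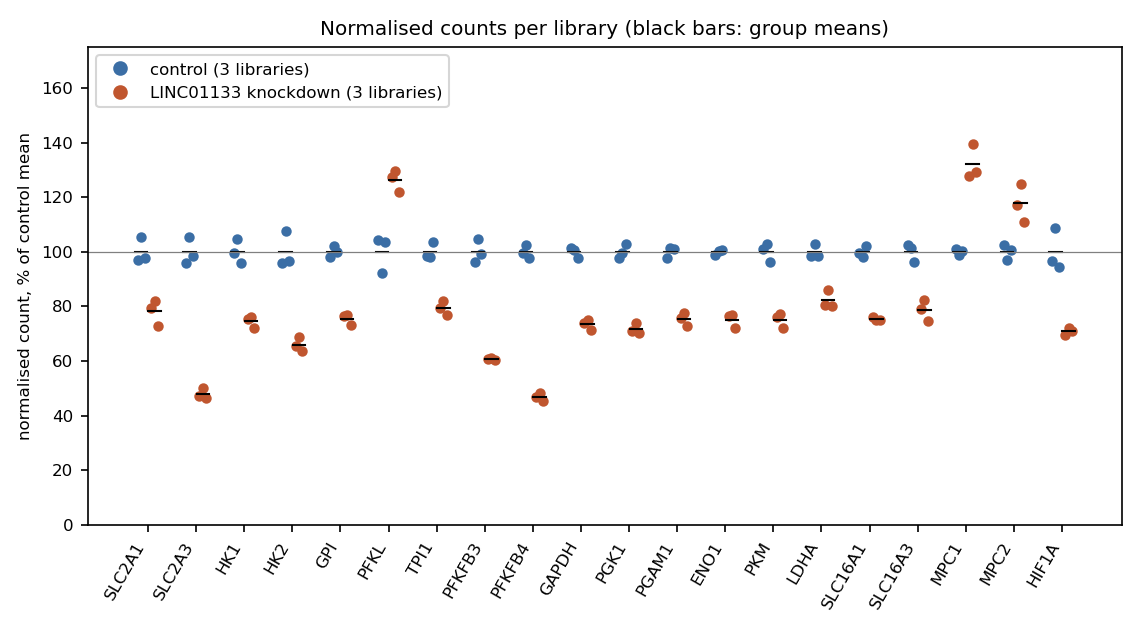
Normalised counts of 20 members in each of the 6 libraries, as a percentage of the control mean of that gene (vertical axis, from 0); points are libraries and black bars group means. The knockdown points of GAPDH, PGK1, PGAM1, ENO1 and PKM sit side by side between 70% and 78% of control, SLC2A3 and PFKFB4 lie lower, and PFKL, MPC1 and MPC2 lie above 100%.

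Since ratios of genes within a library do not depend on how libraries are scaled, GAPDH was also set against other enzymes directly. The log2 ratio of GAPDH to ENO1 was 0.30, 0.26 and 0.22 in control and 0.21, 0.23 and 0.24 in knockdown libraries, and the groups overlapped. The ratio to PGK1 differed by 0.04 and that to PKM by -0.03 (log2, knockdown minus control), again with overlap. Against TPI1 the ratio was lower in all knockdown libraries, by 0.11 on the log2 scale (control 1.84, 1.83 and 1.71; knockdown 1.69, 1.67 and 1.69). Counts on the 17 genes from hexokinase to lactate dehydrogenase made up 1.37% to 1.38% of all gene counts in control and 1.07% to 1.13% in knockdown libraries. GAPDH held 26.0% to 26.8% of these enzyme counts in control and 25.2% to 25.4% in knockdown libraries. In all, 12 ratios of members were compared by exact permutation tests (two-sided). With 3 libraries against 3 an exact permutation test cannot go below p = 0.1, and after Benjamini-Hochberg adjustment over the 12 the smallest value was 0.24. The groups were apart in 5 ratios and overlapped in 7.

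Per 1000 bases of the canonical transcript, the control level was highest for GAPDH (93285 normalised counts), followed by ENO1 (56230), PKM (29524), TPI1 (25622), LDHA (16227), PGAM1 (9601) and PGK1 (6638). Reads that mapped to more than 1 place had been dropped, so genes with near-identical pseudogene copies, GAPDH, PGK1, PGAM1, ENO1, PKM, TPI1 and LDHA among them, can be counted incompletely and their order is uncertain. The knockdown libraries gave the same order of these 7 genes, from 68612 for GAPDH to 4756 for PGK1.

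All 4 glucose transporters among the members fell. SLC2A3, the high-affinity transporter GLUT3, changed most. It (ENSG00000059804.16, chr12:7919230-8019007, minus strand) had 6994, 7689 and 7190 normalised counts in control and 3450, 3670 and 3382 in knockdown libraries, a log2 fold change of -1.06 (SE 0.046, adjusted p = 1.9e-09), or 48.0% of control. Its sequence is nearly identical to that of SLC2A14, whose own counts were low (28.3 ± 2.8 against 18.4 ± 4.2, SD, n = 3 each, adjusted p = 0.061), so reads shared by both are missing from each. SLC2A1, the widespread transporter GLUT1, had 1894, 2063 and 1908 in control and 1555, 1603 and 1427 in knockdown libraries (log2 fold change -0.35, SE 0.051). Relative to SLC2A1, SLC2A3 was lower by 0.70 on the log2 scale, with no overlap between the groups (exact permutation p = 0.1, the smallest possible). SLC2A6 (551 ± 17 against 471 ± 4) and SLC2A12 (260 ± 11 against 210 ± 6, SD, n = 3 each), 2 less common transporters, fell by 0.23 and 0.31 on the log2 scale. With counts taken without regard to strand, SLC2A12 did not pass (log2 fold change -0.16, adjusted p = 0.23). Per 1000 bases, SLC2A3 stood at 1905 and SLC2A1 at 578 normalised counts in control, and at 915 and 452 in knockdown cells.

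In the upper part of glycolysis 5 of 9 enzymes fell and PFKL rose. HK2, the hexokinase typical of muscle and of fast-growing cells (ENSG00000159399.10, chr2:74834127-74893359, plus strand), had 5541, 6217 and 5577 normalised counts in control and 3787, 3976 and 3675 in knockdown libraries (log2 fold change -0.60, SE 0.049, adjusted p = 5.3e-07). It lay at the edge of the 1.5-fold cutoff and was no longer past it without control replicate 2 (-0.55) or knockdown replicate 3 (-0.57), although it stayed lower with an adjusted p under 0.05. HK1, the hexokinase of most tissues, fell by 0.42 (8539 ± 369 against 6369 ± 191, SD, n = 3 each). The ratio of HK2 to HK1 was lower in all knockdown libraries, by 0.18 on the log2 scale. GPI, the isomerase that follows, fell by 0.40 (12148 ± 242 against 9178 ± 262), and TPI1, which interconverts the triose phosphates, fell by 0.33 (34615 ± 1046 against 27500 ± 908, SD, n = 3 each).

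The 3 phosphofructokinase genes moved apart. PFKL, the liver-type subunit (ENSG00000141959.17, chr21:44300051-44327376, plus strand), had 5682, 5007 and 5624 normalised counts in control and 6925, 7051 and 6634 in knockdown libraries, a log2 fold change of 0.34 (SE 0.048, adjusted p = 7.8e-05). PFKM, the muscle-type subunit, was slightly lower (2712 ± 105 against 2494 ± 37, SD, n = 3 each, log2 fold change -0.12, adjusted p = 0.024). It no longer passed when control replicate 3 (-0.09) was left out, nor when knockdown replicate 1 (-0.11) or 2 (-0.11) was, and with libraries scaled by their size alone its log2 fold change was -0.06 (adjusted p = 0.26). PFKP, the platelet-type subunit, had 8961, 8937 and 8967 in control and 9498, 9826 and 8846 in knockdown libraries, and the groups overlapped (log2 fold change 0.07, adjusted p = 0.19). It was called higher without knockdown replicate 3 (0.11, adjusted p = 0.034) and with library size alone (0.13, adjusted p = 0.013). Per 1000 bases, PFKP was the most abundant of the 3 in both groups, with 3410 normalised counts in control, ahead of PFKL (1871) and PFKM (878). The log2 ratio of PFKP to PFKL was 0.66, 0.84 and 0.67 in control and 0.46, 0.48 and 0.42 in knockdown libraries.

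The counts of ALDOA and LDHB could not be read as levels. ALDOA, the aldolase of muscle and most cell lines, had only 141, 113 and 96 normalised counts in control and 141, 111 and 90 in knockdown libraries. In GENCODE v44, 89.8% of the bases of its canonical transcript also lie in exons of ENSG00000285043 on the same strand, and STAR leaves out reads that fall on more than 1 gene. The same holds for LDHB, which encodes the other subunit of lactate dehydrogenase and shares 76.5% of these bases with ENSG00000285854. For neither gene is the count a level of the transcript, and the log2 fold changes (-0.02 for ALDOA and -0.39 for LDHB) did not pass the test. LDHB had 115, 113 and 83 in control and 103, 75 and 54 in knockdown libraries (adjusted p = 0.13), and was called lower without knockdown replicate 1 (-0.66, adjusted p = 0.020) and with no filter on low counts (-0.39, adjusted p = 0.033). ALDOC, the aldolase of brain, was low in both groups (53.3 ± 10.8 against 51.4 ± 3.3, SD, n = 3 each, adjusted p = 0.79).

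The genes that set the activator of phosphofructokinase held 3 of the 5 DE members. PFKFB3 and PFKFB4 encode bifunctional enzymes that make and break this activator, and PFKFB3 is best known for making it. PFKFB3 (ENSG00000170525.21, chr10:6144934-6254644, plus strand) had 2069, 2256 and 2134 normalised counts in control and 1311, 1313 and 1297 in knockdown libraries (log2 fold change -0.72, SE 0.043, adjusted p = 3.4e-08). PFKFB4 (ENSG00000114268.12, chr3:48517684-48562015, minus strand) had 623, 641 and 611 in control and 292, 302 and 285 in knockdown libraries, the largest fitted fall among the members (log2 fold change -1.09, SE 0.065, adjusted p = 2.8e-08). In both genes the groups did not overlap. TIGAR, a phosphatase that removes the activator, also fell, from 138, 141 and 118 to 83.1, 86.4 and 87.4 normalised counts (log2 fold change -0.63, SE 0.12, adjusted p = 9.0e-04). TIGAR shares 20.8% of the bases of its canonical transcript with another gene on the same strand and is counted in part. PFKFB2, the form known from heart, did not pass (397 ± 43 against 406 ± 22, SD, n = 3 each, log2 fold change 0.04, adjusted p = 0.75).

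Of the 4 genes of lactate, 3 fell. LDHA, which favours the step from pyruvate to lactate, had 35868, 37376 and 35851 normalised counts in control and 29313, 31301 and 29212 in knockdown libraries (log2 fold change -0.28, SE 0.038, adjusted p = 4.7e-05). Both lactate carriers were lower in all knockdown libraries. SLC16A1 (MCT1) had 1985, 1960 and 2042 in control and 1516, 1499 and 1496 in knockdown libraries (log2 fold change -0.41, SE 0.039). SLC16A3 (MCT4), known for the export of lactate from glycolytic cells, had 11031, 10908 and 10356 in control and 8500, 8871 and 8020 in knockdown libraries (log2 fold change -0.35, SE 0.043). Their ratio overlapped between the groups (log2 difference 0.06, exact permutation p = 0.4). Per 1000 bases SLC16A3 stood at 4142 and SLC16A1 at 532 normalised counts in control cells.

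Of the 4 genes that bring pyruvate into mitochondria and feed it into the citrate cycle, 2 rose and 2 did not pass the test. MPC1 and MPC2, which together form the mitochondrial pyruvate carrier, were the 2 that rose. MPC1 (ENSG00000060762.19, chr6:166364919-166383013, minus strand) had 253, 248 and 251 normalised counts in control and 320, 350 and 323 in knockdown libraries (log2 fold change 0.40, SE 0.078, adjusted p = 8.7e-04). MPC2 had 1058, 1004 and 1039 in control and 1213, 1291 and 1147 in knockdown libraries (log2 fold change 0.24, SE 0.052, adjusted p = 0.0021), and did not pass when counts were taken without regard to strand (0.14, adjusted p = 0.088). PDHA1, the catalytic alpha subunit of pyruvate dehydrogenase, was at 3188 ± 86 and 3199 ± 105 (SD, n = 3 each, log2 fold change 0.005, SE 0.040, adjusted p = 0.93). PDHB, the beta subunit, had 2996, 2898 and 3113 in control and 2827, 2817 and 2789 in knockdown libraries. Its groups did not overlap, but the log2 fold change of -0.10 missed the threshold (adjusted p = 0.059), and it passed without control replicate 2 (-0.12, adjusted p = 0.015) and with unstranded counts (-0.12, adjusted p = 0.032).

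Of the kinases that switch pyruvate dehydrogenase off, PDK3 fell most. It had 651, 684 and 626 normalised counts in control and 458, 462 and 444 in knockdown libraries (log2 fold change -0.52, SE 0.061, adjusted p = 1.3e-05). PDK1, a known HIF target, was slightly lower (2291 ± 130 against 2066 ± 8, SD, n = 3 each, log2 fold change -0.15, adjusted p = 0.015). It missed the threshold when control replicate 3 (-0.11) was left out, and likewise for knockdown replicate 1 (-0.14) or 2 (-0.14), and with library size alone it was at -0.09 (adjusted p = 0.13). PDK2 overlapped between the groups (652 ± 41 against 648 ± 58, adjusted p = 0.87). Per 1000 bases PDK3 stood at 375, PDK2 at 194 and PDK1 at 163 normalised counts in control cells. The canonical transcripts behind these values are of unlike length, 14072 bases for PDK1 and 1741 for PDK3. Since the longest 3′ UTR annotated for PDK3 has 11302 bases, this order depends on the transcript chosen and is not a ranking of levels.

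HIF1A (ENSG00000100644.17, chr14:61695513-61748259, plus strand) was also lower in knockdown cells. Its normalised counts were 13242, 14869 and 12920 in control and 9508, 9877 and 9717 in knockdown libraries, a log2 fold change of -0.50 (SE 0.049, adjusted p = 2.8e-06). The HIF protein is controlled mainly by its breakdown, which these data do not measure. Of 18 HIF targets outside glycolysis that were tested, 13 fell, 2 rose and 3 did not pass, with a median of -0.20. Of all genes tested, 25% fell and 23.3% rose, and 34.8% fell among those with a mean normalised count of at least 1000. The lowest were CA12 and CA9, both carbonic anhydrases of the cell surface. CA12 had 2398, 2462 and 2448 normalised counts in control and 804, 822 and 832 in knockdown libraries (log2 fold change -1.57). CA9 had 109, 118 and 120 in control and 44.1, 36.9 and 42.0 in knockdown libraries (log2 fold change -1.49). The 2 that rose were ANKRD37 (log2 fold change 0.60) and VEGFA, the growth factor for blood vessels, with 1630, 1549 and 1638 in control and 2205, 2341 and 2097 in knockdown libraries (0.46, adjusted p = 3.9e-06). Among 5 HIF partners and regulators tested, EGLN2 (0.56), HIF1AN (0.34) and VHL (0.22), whose products restrain HIF, rose. EPAS1, which encodes HIF2A, fell (-0.29). EGLN3 and EGLN1, relatives of EGLN2, were counted among the targets above. EGLN3 fell (-1.04, adjusted p = 9.7e-06) and EGLN1 did not pass (0.15, adjusted p = 0.14).

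Promoter sequence was set beside these values because HIF binds a short core that can read ACGTG or GCGTG. Promoters of 33 of the 36 members were at hand (RefSeq, GRCh38.p14, from 250 bases before to 50 bases after the start). ACGTG, searched on both strands, was in 11 of the 33 (33.3%) and in 21.4% of all 35116 promoters of this length. GCGTG was in 17 of the 33 (51.5%) and in 36.5% of all, and CACGTG, which contains ACGTG and reads alike on both strands, in 4 (12.1%) and in 7.26% of all. Of the 21 members that fell and had a promoter, 7 held ACGTG and 11 held GCGTG. The 35116 promoters were not limited to genes tested here, and the part of these motifs in the falls was not tested. The 150 bases before the RefSeq start used are printed for GAPDH, HK2 and LDHA, which fell and hold ACGTG there. They are also printed for ENO2, which holds it and did not pass the test. TIGAR and PDK3, which fell, and ALDOC and PDHB, which did not pass, hold it there as well and are not printed. For GAPDH and ENO2 these bases lie inside the gene as placed by GENCODE v44, which starts at chr12:6534512 and chr12:6913745. They precede an internal start, and its use in these cells was not tested. Capitals mark ACGTG on either strand (CACGT where it lies on the other strand).
GAPDH, chr12:6535114-6535263, plus strand: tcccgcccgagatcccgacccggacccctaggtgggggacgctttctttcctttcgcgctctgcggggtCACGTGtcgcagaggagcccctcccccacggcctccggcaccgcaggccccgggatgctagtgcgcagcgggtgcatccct
HK2, chr2:74833977-74834126, plus strand: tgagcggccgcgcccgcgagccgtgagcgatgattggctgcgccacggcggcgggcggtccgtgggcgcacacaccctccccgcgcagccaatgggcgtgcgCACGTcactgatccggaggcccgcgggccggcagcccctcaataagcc
LDHA, chr11:18394413-18394562, plus strand: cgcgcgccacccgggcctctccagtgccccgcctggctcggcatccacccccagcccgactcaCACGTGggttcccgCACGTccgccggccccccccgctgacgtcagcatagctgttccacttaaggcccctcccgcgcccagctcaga
ENO2, chr12:6914430-6914579, plus strand: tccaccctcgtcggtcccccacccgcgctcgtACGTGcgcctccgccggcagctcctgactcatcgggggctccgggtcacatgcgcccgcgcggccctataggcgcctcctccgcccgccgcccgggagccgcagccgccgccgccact

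The seed of the siRNA was also searched for, since an siRNA can act on other transcripts through matches of its seed to their 3′ UTR. The 7-base match AGAATGG was in an annotated 3′ UTR of 12 of the 35 members tested (34.3%) and of 25.4% of 12542 tested genes. The 8-base match AGAATGGA, which pairs with positions 1 to 8 of the guide and contains the 7-base match, was in 7 members (20%) and in 9.43% of these genes. Those 7 were HK2, PFKM, PFKFB2, PFKFB4, LDHA, PDK1 and PDK3. Of the 23 members that fell, 9 had the 7-base match, 6 of them also the 8-base match, and 14 had none. GAPDH, ENO1, PKM, TPI1, PGAM1, GPI, SLC2A1, SLC2A3, SLC16A1, SLC16A3, PFKFB3 and HIF1A were among the 14. The part of the seed in the falls of HK2, PFKFB4 and the others with a match was not tested.

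Genes of neighbouring pathways are given by their counts, to be read beside the 25% of all genes that fell and the 23.3% that rose. Of the 17 genes from hexokinase to lactate dehydrogenase, 11 fell and PFKL rose, with a median log2 fold change of -0.39. That median falls on LDHB, whose counts are not a level, between TPI1 (-0.33) and GPI (-0.40). Other members of the same gene families were mostly low or did not pass the test. Of 32 listed, 19 were tested, 14 did not pass and the median was -0.02. HKDC1, a further hexokinase (-0.92), SLC16A7, a further lactate carrier (-0.24), BSG, the chaperone of the lactate carriers (-0.23), and BPGM (-0.16) fell. DLD, a shared subunit of mitochondrial dehydrogenases, rose (0.11). In the pentose phosphate pathway 2 of 7 genes fell, TKT (-0.47) and TALDO1 (-0.23), and PGLS rose (0.39), with a median of 0.04. In glycogen metabolism and gluconeogenesis 6 of 13 fell and 3 rose, from FBP1 (-0.79) and GBE1 (-0.38) to GSK3B (0.21) and PCK2, the mitochondrial form of the enzyme that makes phosphoenolpyruvate (0.87), with a median of -0.002. In the citrate cycle 8 of 17 fell and 2 rose, with a median of -0.10. The lowest were SUCLA2 (-0.80) and SUCLG1 (-0.36), both subunits of succinyl-CoA ligase, and IDH3A, a subunit of isocitrate dehydrogenase, was among those that rose (0.11). Of 4 genes of glucose sensing tested, the arrestins ARRDC4 (-1.17) and TXNIP (-0.24), known to restrain glucose uptake, fell, and the transcription factor MLX rose (0.53).

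**Figure D3:**
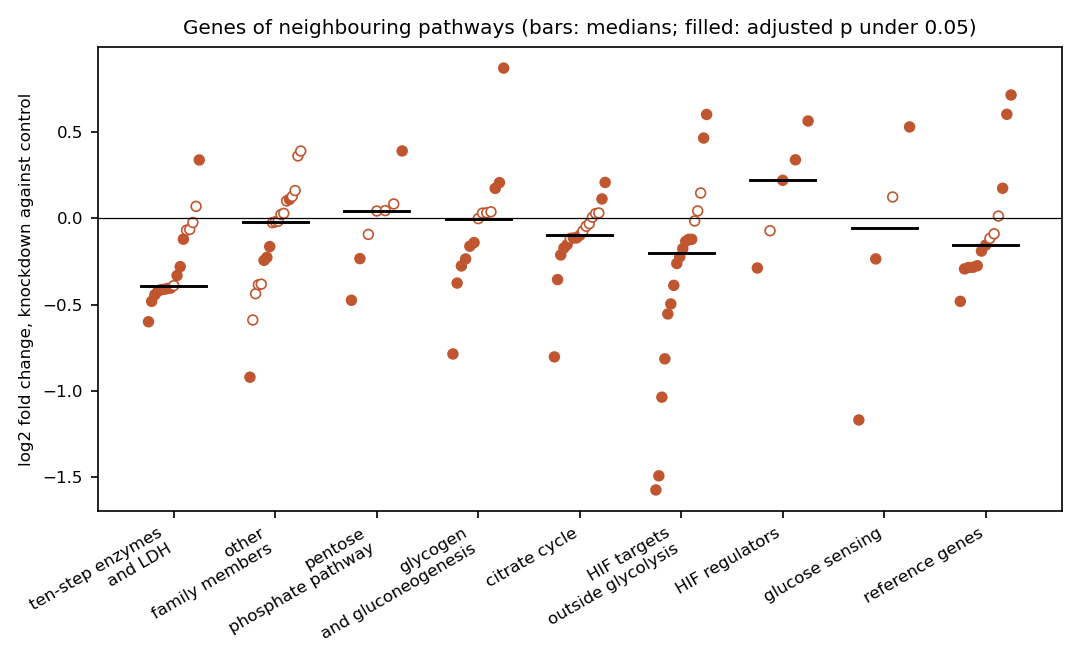
Log2 fold change of knockdown against control (vertical axis) for each tested gene of glycolysis and of 8 neighbouring gene lists; filled points passed an adjusted p under 0.05 and black bars are medians. The median is -0.39 for the enzymes of glycolysis with lactate dehydrogenase and -0.20 for HIF targets outside glycolysis, and close to 0 for the pentose phosphate and glycogen lists.

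Genes commonly used as references for qRT-PCR were not level either. Of 13 such genes tested, among them the member PGK1, 7 fell, 3 rose and 3 did not pass. Of all genes tested, 25% fell and 23.3% rose, and 34.8% fell among those with a mean normalised count of at least 1000. Those that fell were the glycolytic PGK1 (-0.48), B2M (-0.29), YWHAZ (-0.28), TFRC (-0.28), ACTB (-0.28), TBP (-0.19) and PPIA (-0.16), and RPLP0 (0.71) and GUSB (0.60) were among those that rose. HPRT1 (-0.09, adjusted p = 0.097) and SDHA (-0.12, adjusted p = 0.53) were among those that did not pass. SDHA had 138 ± 30 normalised counts in control cells (SD, n = 3), where SDHB, SDHC and SDHD had means of 2693, 2444 and 2398. Shared exons were looked up for members only, and reads with more than 1 mapping place had been dropped. The SDHA count may therefore not be a level of its transcript. When GAPDH took the place of all genes as the reference in these libraries, a gene with no change on the scale of all genes read 1.36-fold higher in knockdown cells. On that scale the log2 fold change of LINC01133 went from -2.63 to -2.19, that of ACTB from -0.28 to 0.17 and that of PGK1 from -0.48 to -0.04.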

How the data were processed

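RNA of 6 cultures of 12Z cells was sequenced. The authors aligned the reads with STAR 2.7.6a to GRCh38.p13 and GENCODE v36, allowed no read with more than 1 mapping place, and deposited the raw counts per gene. Of the 3 count columns per file (unstranded and 1 for each strand), the one opposite in strand to read 1 was used here, since it held 94.0% of the stranded counts. The first 4 rows of each file, which name no gene, were left out of all sizes (reads on more than 1 gene were 3.88% to 4.23% of the reads on or outside genes). The paper describes a TruSeq kit and the labels a NEB poly-A library.

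From the counts, genes were kept by filterByExpr (minimum count 10), normalised by TMM and tested for condition alone with edgeR 4.0.16 in R 4.3.3 (quasi-likelihood test, Benjamini-Hochberg adjusted over 15155 genes). The SE of a log2 fold change was its size divided by the square root of F. DE took the cutoffs of the study (fold over 1.5, adjusted p under 0.05). In data simulated for this comparison (14986 genes tested), 90 of 100 genes changed 2-fold and 71 of 100 changed 1.3-fold were recovered, with 5 false calls. The share of genes changed there was far smaller than the 48.3% called in these data, so these figures do not carry over directly. Ratios were compared by exact permutation (scipy 1.17.1). Alternatives were DESeq2 1.42.0, scaling by library size alone or by median-of-ratios size factors, a filter of at least 10 counts in each library or none, the unstranded counts, a replicate block, and leaving out each library. Gene positions, shared exons and 3′ UTRs came from GENCODE v44 on GRCh38, since v36 was not at hand, and promoters from RefSeq; the siRNA sequence is that listed by the study.

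The members and lists were chosen with earlier results of these data known. Named were all members, LINC01133, every reference gene and, from each other list, up to 2 genes that rose and 2 that fell most (adjusted p under 0.05). A few genes that this rule names are not reported here. Markers, SLC2A14, EGLN1, EGLN3, BSG, BPGM, SDHB, SDHC and SDHD were named outside this rule, after their values were seen. Replicates are biological replicates of 1 cell line, so p-values measure the spread between cultures. Precision is given by the SD or SE over 3 libraries per group.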

Additional observations from a re-analysis of the deposited data

How the results depend on the processing

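The call held in 437 of 455 alternatives of single members (13 alternatives for each of 35 members). In 10 a call was lost and in 8 one was gained, in 8 members, and no member with a call changed direction, while 5 that did not pass (ALDOA, ALDOC, PDHA1, PDK2 and PFKFB2) changed sign under some alternatives. GAPDH stayed lower in all of them, at -0.38 with library size alone and from -0.46 to -0.42 with 1 library left out. The number of members past the 1.5-fold cutoff was 3 with library size alone (PFKFB3, PFKFB4 and SLC2A3), since this scaling moved the median of all genes by 0.062 on the log2 scale and HK2 and TIGAR lay close to the cutoff. With 1 library left out that number ranged from 4 to 6, the number of members that fell from 21 to 25 and the number that rose from 3 to 4. Over all genes, DESeq2 called 6119 genes against 7315 with edgeR. Same-numbered control and knockdown libraries did not deviate together (correlations of -0.015, 0.0049 and 0.057), and not every library correlated best with its own number. No pairing by number was seen, but 3 libraries per group are too few to exclude it. With the replicate number as a block, 24 members fell, 5 were past the cutoff, GAPDH was at -0.44, and LDHB passed the test (-0.42, adjusted p = 0.037). Depth limits ALDOC, TIGAR and PDK4 among the members, and the counting of shared exons limits ALDOA and LDHB.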
